A study of Mus musculus with 88 samples.

Results

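The #8520 tumour, a radiation-induced fibrosarcoma of C3H mice, was examined 6 h after a single dose of 30 Gy of carbon ions. The comparison was defined by the sample titles alone and holds 4 of the 88 arrays of the series, 2 of irradiated and 2 of unirradiated tumour from the carbon-ion arm. In the series 4 mouse tumours, NR-S1, SCCVII, NFSa and #8520, were grown as transplants in the hind legs of C3H/HeNrs mice, irradiated once with carbon ions at 30 Gy or with the reference beam, gamma rays, at 30 or 50 Gy, and collected at 6 h, day 1 or day 3. By their labels NFSa is a spontaneous fibrosarcoma and both NR-S1 and SCCVII are squamous carcinomas. Each tumour was used as it grew in the animal, with the host cells it contained, and the RNA source is given only as murine tumor. The sources used here state neither the sex nor the age of the mice. They also leave out whether replicate arrays stand for different mice, so every p-value below measures the spread between arrays, which may be technical.

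Besides these 4 arrays, the account uses the later carbon-ion times of #8520, day 1 and day 3, #8520 at 6 h after gamma rays at 30 or 50 Gy with the untreated tumours of the gamma arm, and the other 3 tumours untreated and 6 h after carbon ions at 30 Gy, 2 arrays in each group. Levels are log2 of the deposited intensity, on a scale where the median probe of an array lies near 0, and a level can be compared between arrays for 1 gene but not between genes. Changes are differences of log2 levels with their standard error (SE), tested with limma over the 13465 genes retained, and a gene passed when its Benjamini-Hochberg adjusted p was under 0.05. The deposited intensities of the #8520 carbon-ion arrays had medians of 1.05 to 1.07. The replicate arrays correlated at 0.996 before and 0.997 after irradiation over genes, with a standard deviation of their log2 difference of 0.191 and 0.162, within the 0.139 to 0.340 found over the 44 groups of the series. Marker genes bore on the label only in part. The 8 fibroblast markers examined included Vim, Col1a1 and Fn1. They lay between 2.12 and 7.87 on the untreated arrays and between 2.18 and 7.71 at 6 h. Their range was -1.15 to 7.95 in untreated NR-S1 and 0.93 to 8.70 in SCCVII, so that the range does not set a fibrosarcoma apart. Gene by gene, Prrx1 and Col1a2 read higher in untreated #8520 and NFSa than in both carcinomas. Prrx1 read 2.12 and 2.27 in #8520 and 2.70 and 2.56 in NFSa, against -0.94 and -1.15 in NR-S1 and 1.02 and 0.93 in SCCVII. The other markers of the set did not separate them in this way. The 6 epithelial markers, among them Krt5, Epcam and Cdh1, lay between -3.67 and -0.15 on the untreated #8520 arrays. At 6 h they lay between -3.81 and -0.13, against 5.90 to 9.04 in untreated NR-S1. In SCCVII, labelled a carcinoma, they lay between -3.29 and -0.33, so that they separated #8520 from NR-S1 and not from SCCVII.

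Ionizing radiation breaks DNA, and the breaks activate checkpoint kinases that stabilise the transcription factor p53. p53 switches on genes of arrest and death, among them the inhibitor of cyclin-dependent kinases Cdkn1a, through which the genes of DNA replication and of mitosis are shut off. Irradiated tissue also releases chemokines and cytokines, part of them under NF-kB, which draw neutrophils and other white blood cells from the blood, and a tumour sample contains those cells beside the tumour cells.

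At 6 h after carbon ions 3822 of 13461 genes with values (28.4%) differed from untreated #8520, 1377 higher (10.2%) and 2445 lower (18.2%). Large changes ran mostly upward. At least 2-fold changes that passed numbered 191 up and 85 down, and at least 1.5-fold changes 553 up and 544 down. The median change over all genes was -0.08, with a median SE of 0.119. With the arrays quantile normalized the split of calls was 1653 higher and 1726 lower, so that the share of higher calls moved from 36.0% to 48.9%. Without the first untreated array 2546 genes passed. Both irradiated arrays lay above both untreated arrays for 2899 of 13276 genes with all values (21.8%) and below them for 5913 (44.5%).

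The p53 targets of arrest and feedback rose. Of 26 listed genes 24 were tested, and 19 rose and 0 fell, against 10.2% rising among all genes, with a median change of 0.89. Of 18 p53 targets of cell death 16 were tested, and 11 rose and 0 fell, with a median of 0.42. The genes that did not pass were Sesn1 at -0.29, Plk2 at 0.26, Plk3 at 0.09, Rchy1 at 0.12 and Trp53inp1 at -0.19 among the former, and Tigar at -0.25, Trp53i11 at 0.15, Casp1 at 0.00, Dram1 at 0.26 and Rps27l at 0.24 among the latter.

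Cdkn1a, which holds cyclin-dependent kinases inactive, read 5.23 and 5.42 on the untreated arrays and 6.63 and 6.82 at 6 h. Both irradiated arrays lay above both untreated ones, a rise of 1.40 (SE 0.192, adjusted p = 6.5e-08) or 2.64-fold. Its rise in the other tumours was 1.42 in NR-S1, 1.08 in SCCVII and 1.16 in NFSa, and the difference of 0.18 between #8520 and their mean did not pass (adjusted p = 0.64). Mdm2, the ubiquitin ligase that degrades p53 and is its own target, read 2.19 and 2.10 before and 3.78 and 3.95 after. The groups did not overlap, and the rise was 1.72 (SE 0.204, adjusted p = 1.4e-09). Ccng1, which encodes cyclin G1, read 3.99 and 3.86 against 5.59 and 5.13. It rose by 1.44 (SE 0.130, adjusted p = 3.5e-13), with the irradiated replicates further apart than the untreated ones but still above them.

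The largest rises of the arrest list were in Ptprv, Dcxr and Cgref1. Ptprv, a receptor-type phosphatase known as a p53 target of cell cycle arrest, read 1.92 and 1.82 before and 4.64 and 4.70 at 6 h. It rose 6.97-fold (2.80, SE 0.0996, adjusted p = 1.5e-29), or 1.42 on the log2 scale with the mean of all its probes. The rise exceeded the mean of the other tumours by 1.11 (SE 0.115, adjusted p = 2.1e-10). Dcxr, a carbonyl reductase, went from 2.83 and 2.64 to 5.18 and 5.05, and Cgref1, a calcium-binding growth regulator, from 0.54 and 0.86 to 2.68 and 2.75, each without overlap of the groups. Btg2, an antiproliferative cofactor of transcription, read 0.39 and 0.30 and then 1.97 and 2.01 (change 1.65, adjusted p = 2.9e-15). Other rises were seen in Ephx1 (1.66), the G2 arrest mediator Rprm (1.41), Sesn2 (1.15), Gadd45a (1.00), Phlda3 (0.87) and Zmat3 (0.80). Celf5, an RNA-binding protein gene that belongs to no list, rose in all 4 tumours. It went from -1.91 and -1.86 to 2.02 and 1.94, a 14.5-fold rise (3.86, SE 0.110, adjusted p = 5.8e-34), next to 3.32 in NR-S1, 2.97 in SCCVII and 3.91 in NFSa.

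Among the death targets Perp, which encodes a membrane protein of apoptosis and of desmosomes, read -2.54 and -2.48 untreated and -0.01 and 0.14 at 6 h. The change of 2.57 (SE 0.177, adjusted p = 2e-17, 5.96-fold) came from levels in the low range of the arrays. In the other tumours Perp changed by 0.16, 0.13 and 0.75, and #8520 exceeded their mean by 2.23 (SE 0.204, adjusted p = 4.2e-12). Pmaip1, the BH3-only protein Noxa, read 0.79 and 0.81 before and 2.92 and 2.86 after (2.09, SE 0.0951, adjusted p = 8.2e-25). Both of its irradiated arrays stood clear of the untreated ones. The death receptor Fas rose by 1.26, the caspase-2 adaptor Pidd1 by 1.25, Ei24 by 0.99 and Bbc3, which encodes Puma, by 0.70.

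The p53 response element, in which pairs of p53 half-sites adjoin, was searched in promoter windows from 250 bases before to 50 bases after the start site in RefSeq's table of assembly GRCm38.p6, on both strands and with up to 2 mismatches. It was found in 3 of 26 windows of the arrest list (11.5%) and 1 of 19 of the death list (5.26%), against 0.798% of all 32851 windows of that length. The upstream stretches of Cdkn1a, at chr17:29090879-29090978 on the plus strand, and Ccng1, at chr11:40755287-40755486 on the minus strand, are shown because these target genes rose and hold a match, which is in capitals.
Cdkn1a: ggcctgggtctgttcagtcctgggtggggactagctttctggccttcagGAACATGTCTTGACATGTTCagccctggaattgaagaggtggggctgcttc
Ccng1: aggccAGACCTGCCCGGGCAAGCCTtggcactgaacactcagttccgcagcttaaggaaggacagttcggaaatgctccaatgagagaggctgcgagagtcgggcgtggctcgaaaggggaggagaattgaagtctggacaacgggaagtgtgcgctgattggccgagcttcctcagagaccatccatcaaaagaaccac
A match is a run of letters and not a measured binding site.

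**Figure D1:**
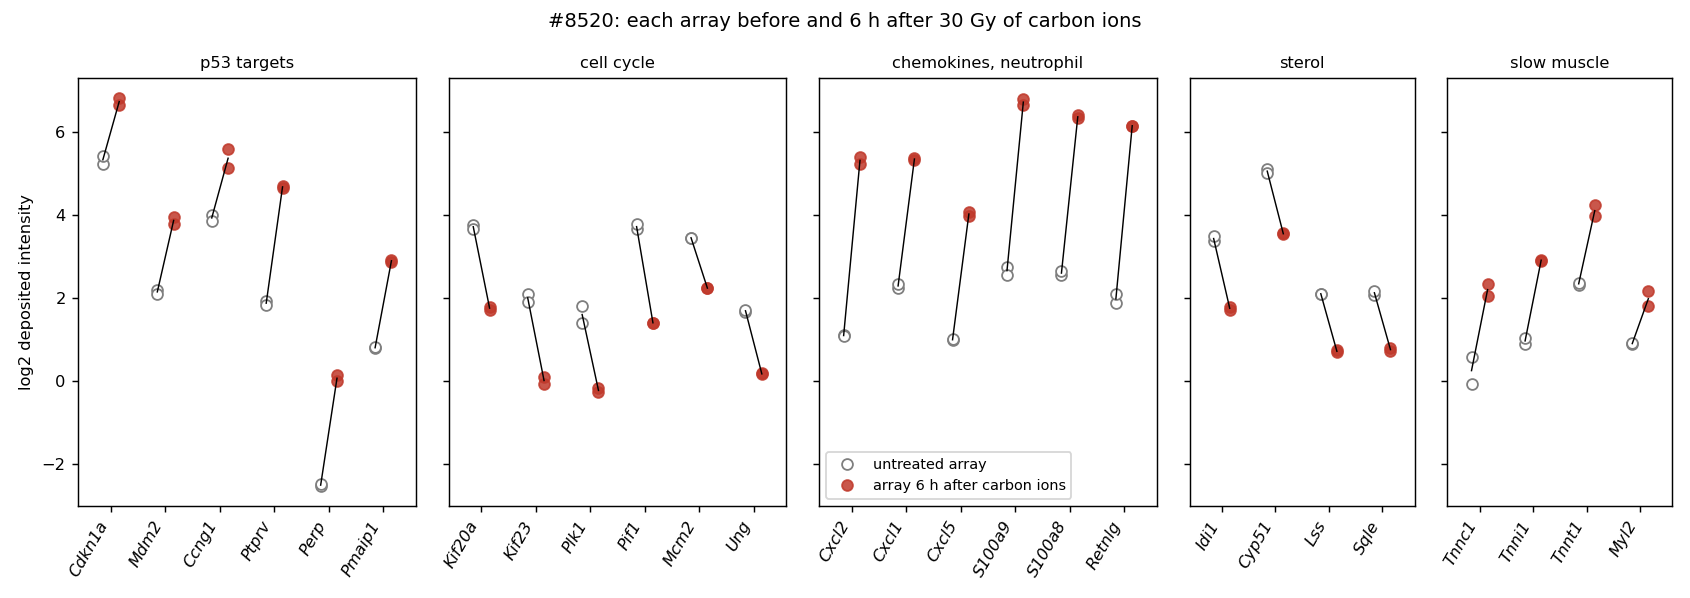
Log2 of the deposited intensity of single genes on each of the 4 arrays, grouped in panels for p53 targets, the cell cycle, chemokines with neutrophil genes, sterol synthesis and slow muscle. Open grey points are the 2 untreated arrays, red points the 2 arrays at 6 h after carbon ions, and a black line joins the group means. For every gene drawn the points of one group lie to one side of the other, upward for p53 targets, chemokines, neutrophil and muscle genes and downward for cell cycle and sterol genes.

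Genes of G2 and mitosis fell as a block. Of 47 listed genes 43 were tested, and 41 fell and 0 rose, against 18.2% falling among all genes, with a median change of -1.11. The members that did not pass were Bub1 at 0.00 and Sgo1 at -0.17. Kif20a, a kinesin of the cleavage furrow, read 3.76 and 3.67 untreated and 1.79 and 1.71 at 6 h. Its arrays separated cleanly, and it fell by 1.96 (SE 0.110, adjusted p = 5.1e-21) or 3.89-fold. Kif23, the motor of the central spindle, read 2.10 and 1.90 and then 0.10 and -0.08. It fell by 1.99 (SE 0.155, adjusted p = 2e-15), and by 1.30 when the untreated arrays of both arms served as control. Plk1, a kinase of mitotic entry and chromosome segregation, read 1.81 and 1.39 before and -0.28 and -0.18 after. The gap between the groups was wider than the spread of the untreated replicates (change -1.83, SE 0.113, adjusted p = 3.7e-19). Aspm, a protein of the spindle poles, went from 3.90 and 3.92 to 2.21 and 2.26. The phosphatase Cdc25c fell by 1.67, the kinase Aurka by 1.51 and the activator of the anaphase-promoting complex Cdc20 by 1.50.

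The change was smaller for Cdk1, the kinase that drives mitosis, which read 7.08 and 7.09 untreated and 6.30 and 6.29 at 6 h. Replicates lay close together, and it fell by 0.79 (SE 0.134, adjusted p = 6.2e-06) or 1.73-fold. Kif11, the kinesin that separates the spindle poles, went from 2.75 and 2.57 to 1.66 and 1.67 (change -0.99, SE 0.104, adjusted p = 4.6e-11). Outside the list Sapcd2, a protein of spindle orientation, had the largest named fall, from 2.79 and 2.84 to 0.44 and 0.56. It fell by 2.32 (SE 0.165, adjusted p = 6.7e-17), and more than in the other tumours, by 1.51, 1.00 and 0.88 in NR-S1, SCCVII and NFSa.

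Promoters of mitotic genes are known for a CCAAT box, bound by NF-Y, paired with the cell cycle genes homology region (CHR). The CHR letters TTTGAA, on either strand, were in 26 of 37 windows of this list (70.3%) against 17.9% of all windows, and CCAAT, on either strand, in 33 of 37 (89.2%) against 37.4%. The motifs were searched separately, so that matches may overlap. Cdk1, at chr10:69352913-69353012 on the minus strand, and Kif11, at chr19:37376282-37376381 on the plus strand, are shown for the spacing of the motifs, with both in capitals.
Cdk1: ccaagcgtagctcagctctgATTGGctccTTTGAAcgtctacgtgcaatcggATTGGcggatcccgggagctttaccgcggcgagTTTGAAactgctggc
Kif11: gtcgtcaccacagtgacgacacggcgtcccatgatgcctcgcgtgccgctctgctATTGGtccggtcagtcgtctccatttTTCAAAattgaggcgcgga
ATTGG and TTCAAA are the motifs as read on the opposite strand.

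DNA replication genes fell less deeply. Of 47 listed genes 40 were tested, and 35 fell and 0 rose, with a median change of -0.58. Ung, which removes uracil from DNA, read 1.66 and 1.72 untreated and 0.16 and 0.18 at 6 h. The separation was many times the replicate gap (change -1.52, SE 0.107, adjusted p = 5.2e-17), while the falls in the other tumours ran from 1.80 to 2.16. The fall in #8520 was thus smaller by 0.47 than their mean (SE 0.124, adjusted p = 0.0066). Mcm2, a subunit of the replicative helicase, read 3.45 and 3.44 and then 2.24 and 2.23. It fell by 1.21 (SE 0.102, adjusted p = 3.1e-14), with Mcm3 of the same helicase at -0.91. The origin licensing factor Cdc6 fell by 0.89, and by 2.28 with the mean of its probes. The members that did not pass were the sliding clamp Pcna at -0.05, Gins3 at -0.27, Rrm2 at -0.26, Dut at -0.28 and Dtl at -0.01. The letters TTTNNCGC of an E2F site, on either strand, were in 16 of 41 windows of the list (39%) against 5.17% of all windows.

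Of 30 genes of homologous recombination and checkpoints 22 were tested, and 16 fell and 0 rose, with a median of -0.51. Pif1, a DNA helicase, read 3.65 and 3.78 untreated and 1.40 on both arrays at 6 h. It fell 4.98-fold (-2.32, SE 0.142, adjusted p = 2.3e-19), more than the mean of the other tumours by 0.92 (SE 0.164, adjusted p = 4.6e-05). Chek1, the kinase downstream of Atr, read 3.41 and 3.30 and then 2.32 and 2.21, without overlap (change -1.09, adjusted p = 3.8e-15). Fanca fell by 0.71 and Brca2 by 0.47. Fancd2 at -0.19, Palb2 at 0.02, Chek2 at -0.10, Atr at -0.13, Rad18 at -0.23 and Dmc1 at -0.18 did not pass.

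Chemokines for neutrophils had rises among the largest of the response. Of 26 listed chemokines and receptors 25 were tested, and 12 rose (48%, against 10.2% of all genes), with a median change of 0.29. Another 4 fell (16%, against 18.2% of all genes). Cxcl2, a ligand of the neutrophil receptor Cxcr2, read 1.09 on both untreated arrays and 5.22 and 5.40 at 6 h. The rise was 18.6-fold (4.22, SE 0.160, adjusted p = 2.8e-28). Cxcl1, another ligand of that receptor, went from 2.24 and 2.33 to 5.36 and 5.33, and Cxcl5 from 0.97 and 1.01 to 4.06 and 3.97. For both genes the gap between groups far exceeded the gap between replicates, with changes of 3.06 (SE 0.134, adjusted p = 2.4e-25) and 3.03 (SE 0.0951, adjusted p = 5.1e-32). Cxcl3, the fourth of these ligands, read 1.51 and 1.25 and then 3.74 and 3.83 (change 2.41, adjusted p = 2.1e-22). The receptor gene Cxcr2 itself read -1.47 and -1.80 and then 0.17 and 0.02 (change 1.73, SE 0.179, adjusted p = 2.8e-11). Ccl3 rose by 1.82 and Ccl20 by 2.13.

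The letters GGGNNTTTCC of an NF-kB site, on either strand, were in 5 of 18 windows of the chemokine list (27.8%), 4 of 17 of the cytokine list (23.5%) and 7 of 22 of the NF-kB target list (31.8%), against 1.63% of all windows. The neighbouring genes Cxcl1, Cxcl2 and Cxcl3, at chr5:90891145-90891244, chr5:90903799-90903898 and chr5:90786001-90786100, all on the plus strand, are shown because they rose together, and capitals mark the matches.
Cxcl1: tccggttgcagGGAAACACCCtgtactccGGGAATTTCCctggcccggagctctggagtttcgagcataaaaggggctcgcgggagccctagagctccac
Cxcl2: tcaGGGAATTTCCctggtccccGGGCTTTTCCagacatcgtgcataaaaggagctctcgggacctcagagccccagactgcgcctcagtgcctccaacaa
Cxcl3: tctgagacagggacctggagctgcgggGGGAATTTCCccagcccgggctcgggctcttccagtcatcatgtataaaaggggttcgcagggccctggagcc
Cxcl1 and Cxcl2 held 2 matches each, the first of Cxcl1 on the opposite strand, and Cxcl3 held 1.

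The share of the chemokine list that fell, 16%, was no larger than the 18.2% of all genes. The members that fell were Ccr2, Ccl12, Cx3cl1 and Cxcl12. Ccr2, the receptor by which monocytes leave the marrow, read 4.54 and 4.39 untreated and 3.66 and 3.60 at 6 h (change -0.83, SE 0.129, adjusted p = 9.7e-07). Ccl12, a ligand of Ccr2, read 6.36 and 6.33 and then 5.75 and 5.76. It fell by 0.59 (SE 0.116, adjusted p = 7.1e-05) in #8520, where the other tumours changed by 1.71, 0.35 and 0.56, a difference of -1.47 from their mean (SE 0.134, adjusted p = 3.8e-12). Cx3cl1, the membrane-bound fractalkine, fell by 0.48 and Cxcl12, a stromal chemokine, by 0.41.

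Markers of neutrophils rose beside the chemokines. Of 24 listed markers 17 were tested, and 14 rose and 0 fell, with a median change of 1.18. The mean log2 level over the 17 markers was 1.58 and 1.57 on the untreated arrays and 3.16 and 3.13 at 6 h. Retnlg, a resistin-like peptide of neutrophils, read 1.87 and 2.08 before and 6.15 and 6.14 after. The rise was 18.0-fold (4.17, SE 0.107, adjusted p = 1.3e-35), with the irradiated replicates almost identical. S100a9 and S100a8, the subunits of calprotectin, went from 2.75 and 2.56 to 6.79 and 6.64 and from 2.54 and 2.65 to 6.32 and 6.40. Their rises of 4.06 (SE 0.115, adjusted p = 4.5e-34) and 3.76 (SE 0.103, adjusted p = 1.6e-34) were alike in size. Il1r2, the decoy receptor of interleukin 1, read 0.18 and 0.55 and then 2.92 and 3.00, and Mmp8, the neutrophil collagenase, 0.90 and 0.85 and then 3.19 and 3.30. Hdc, which makes histamine, rose by 2.60, Clec4d by 1.83 and Csf3r, the receptor of the neutrophil growth factor, by 0.55. Ltf at -0.03, Itgam at 0.01 and Cd177 at -0.44 did not pass. In a whole tumour, more cells of a type and more RNA per cell cannot be told apart, for this list and for every cell type below. The part of these cells in the rise of the chemokines was not tested.

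Of 27 listed cytokines and acute-phase genes 19 were tested, with a median of 0.64. Of these 12 rose (63.2%, against 10.2% of all genes) and 2 fell (10.5%, against 18.2%). Il1b, the main inflammatory interleukin of myeloid cells, read 3.86 and 3.48 untreated and 5.90 and 6.07 at 6 h. The irradiated arrays were well above, by 2.31 (SE 0.148, adjusted p = 1.8e-18) or 4.97-fold. Saa3, an acute-phase serum amyloid, went from 3.18 and 3.31 to 5.96 and 6.05 (2.76, SE 0.147, adjusted p = 6.6e-22). Il1rn, the interleukin 1 receptor antagonist, rose by 2.02 and Orm1 by 1.79. Il6 read 1.42 and 1.43 and then 3.00 and 2.78, a rise of 1.46, next to 2.83, 1.47 and 2.54 in NR-S1, SCCVII and NFSa, and lower than their mean by 0.82 (adjusted p = 4.8e-06). Ptx3, a pentraxin induced by inflammatory signals, read 2.96 on both untreated arrays and 3.76 and 3.77 at 6 h. Its rise of 0.80 (SE 0.124, adjusted p = 8.8e-07) set #8520 apart from NR-S1, SCCVII and NFSa, where it rose by 3.75, 2.77 and 3.53, a difference of -2.55 (SE 0.143, adjusted p = 4.9e-20). Csf1, the macrophage growth factor, fell by 0.53 and Hbegf by 0.34.

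Among NF-kB targets and feedback genes 21 of 22 were tested, and 9 rose and 0 fell, with a median of 0.20. Nfkbiz, a nuclear cofactor of NF-kB, read -0.26 and -0.07 untreated and 0.71 and 0.89 at 6 h. It rose by 0.96 (SE 0.138, adjusted p = 2.2e-07), next to 0.13, -0.16 and -0.45 in the other tumours, a difference of 1.12 (SE 0.163, adjusted p = 1.2e-06). The adhesion molecule Icam1 went from 4.77 and 4.57 to 5.58 and 5.67. Clec4e rose by 1.34, Traf1 by 0.93 and Nfkbia, which encodes the inhibitor of NF-kB, by 0.36, while Tnfaip3, an enzyme that ends the signal, was at -0.12 and did not pass. Of 31 immediate-early genes 27 were tested, and 13 rose and 2 fell, with a median of 0.26. Fos, a subunit of AP-1, read -0.06 and -0.01 and then 1.48 and 1.45. It rose by 1.49 (SE 0.168, adjusted p = 3.5e-10), more than its 0.14, 0.50 and 0.24 in NR-S1, SCCVII and NFSa, by 1.20 on the mean (SE 0.194, adjusted p = 8.8e-06). The nuclear receptor Nr4a3 read 0.29 and 0.41 and then 1.90 and 2.09, a change of 1.64, or 0.83 with the mean of its probes. The phosphatase Dusp1, which ends MAP kinase signals, rose by 1.22, Egr2 by 0.95, the matrix protein Ccn2 by 0.91 and Atf3 by 0.45. Egr1 at 0.25 did not pass.

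**Figure D2:**
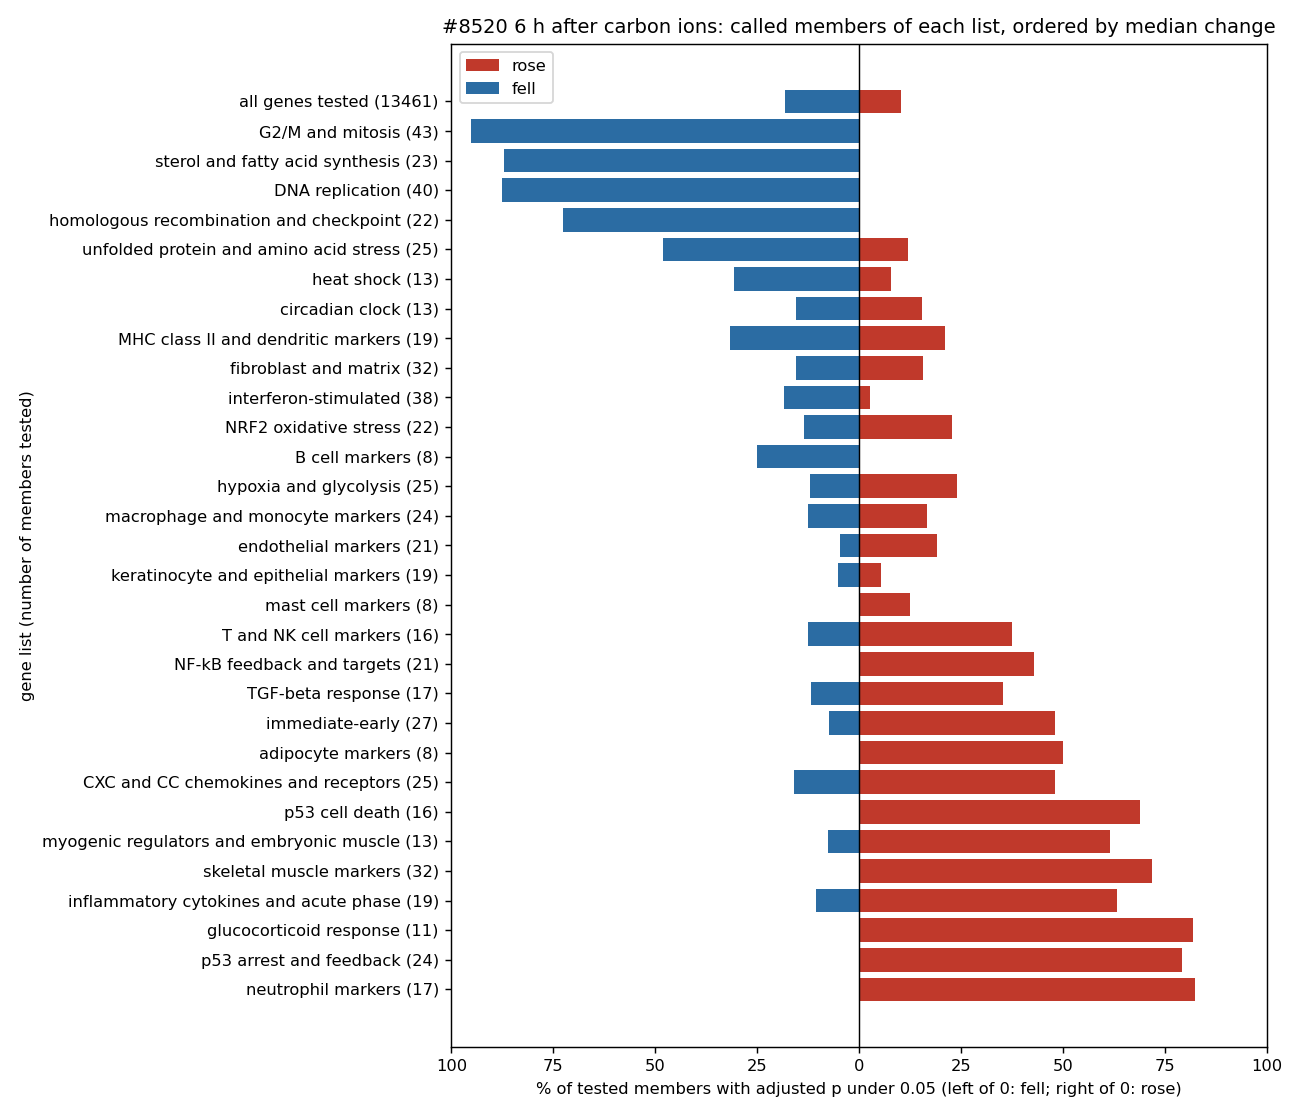
Share of tested members of each gene list that rose (to the right) or fell (to the left) at 6 h after carbon ions, in percent, with lists of at least 8 tested members ordered by their median change and all genes tested in the top row. Glucocorticoid, neutrophil, p53 and muscle lists have most of their members rising, and mitosis, replication and sterol lists most of their members falling, where 10.2% of all genes rose and 18.2% fell.

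Genes of sterol and fatty acid synthesis fell together. Many of its genes are known targets of the transcription factors Srebf1 and Srebf2 and supply lipid for the membranes of growing cells. Of 30 listed genes 23 were tested, and 20 fell and 0 rose, with a median change of -0.94. Idi1, an isomerase of the mevalonate pathway, read 3.36 and 3.49 untreated and 1.72 and 1.78 at 6 h. It fell 3.20-fold (-1.68, SE 0.134, adjusted p = 4.3e-15). Cyp51, the lanosterol demethylase, went from 5.09 and 5.01 to 3.53 and 3.56, Lss, the lanosterol synthase, from 2.10 and 2.09 to 0.69 and 0.74, and Sqle, the squalene epoxidase, from 2.08 and 2.16 to 0.78 and 0.72. No irradiated array of these genes reached the level of an untreated one, and their changes were -1.51, -1.39 and -1.37. Further falls were those of Msmo1 (-1.26), the elongase Elovl6 (-1.19), Sc5d (-1.14), the squalene synthase Fdft1 (-1.07), Hmgcs1 (-0.97), the fatty acid synthase Fasn (-0.94) and Srebf2 (-0.68). Mvd fell by 1.07, with a value on 1 of the 2 irradiated arrays. Dhcr7 at -0.11, Scd1 at -0.13 and Tm7sf2 at -0.24 did not pass. The sterol element TCACNCCAC, on either strand, was in 1 of 23 windows (4.35%), against 1.24% of all. CCAAT was in 17 of 23 (73.9%), against 37.4% of all. Other lists had a like share of CCAAT, as 75% for clock genes and 70.4% for the unfolded protein and amino acid response.

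Of 12 genes known to respond to glucocorticoids 11 were tested, and 9 rose and 0 fell, with a median of 0.84. Pdk4, the kinase that turns off pyruvate oxidation, read 0.54 and 0.67 untreated and 2.80 and 2.75 at 6 h. The groups lay far apart, and the rise was 4.49-fold (2.17, SE 0.162, adjusted p = 4.6e-16). Angptl4, an inhibitor of lipoprotein lipase, went from 4.32 and 4.33 to 5.97 and 6.00. The metallothioneins Mt2 and Mt1 rose by 1.36 and 0.66, Sult1a1 by 1.28, Tsc22d3 by 0.47 and Fkbp5, a chaperone of the glucocorticoid receptor, by 0.36.

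Stress genes of other kinds differed between lists, where 10.2% of all genes rose and 18.2% fell. Falls made up 30.8% of the tested heat shock genes, 13.6% of the NRF2 targets and 12% of the hypoxia and glycolysis genes. Rises made up 7.69%, 22.7% and 24% of the same lists. Of 25 tested genes of the unfolded protein and amino acid response 3 rose (12%) and 12 fell (48%), with a median of -0.37. The chaperone genes Sdf2l1, at 5.20 and 5.23 and then 4.30 and 4.26, and Hspa5 fell by 0.94 and 0.65, and the serine pathway enzyme Shmt2 by 0.90. The lipoprotein receptor Vldlr read 1.58 and 1.63 and then 2.80 on both arrays. It rose by 1.20 (SE 0.0912, adjusted p = 8.2e-16), where the other tumours changed by -0.20, 0.17 and 0.06, a difference of 1.19 (SE 0.105, adjusted p = 1.5e-12). The heat shock list had 1 rise and 4 falls among 13 tested members, or 2 falls without the second untreated or the first irradiated array. Its rise was the inducible chaperone Hspa1a, from 3.45 and 3.69 to 4.85 and 5.18 (1.44, SE 0.217, adjusted p = 5e-07). Of 22 tested NRF2 targets 5 rose and 3 fell, with 3 rises without the first untreated array and 2 without the first irradiated one. Slc7a11, the cystine transporter, rose by 1.81, next to 0.42 for Hmox1 and 0.39 for Nqo1. Among 25 tested hypoxia and glycolysis genes 6 rose and 3 fell, with a median of 0.00 and 3 rises without the second irradiated array. Ndrg1 rose by 0.94 and the endothelial growth factor Vegfa by 0.80, from 4.51 and 4.50 to 5.27 and 5.33.

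Genes of skeletal muscle rose. Of 37 listed markers 32 were tested, and 23 rose and 0 fell, with a median of 0.50. The mean log2 level over the 32 was 3.68 and 3.70 untreated and 4.27 and 4.29 at 6 h. The largest changes were in troponins of slow fibres. Tnnc1, the calcium-binding troponin of slow fibres, read -0.07 and 0.57 untreated and 2.05 and 2.34 at 6 h. The untreated replicates differed by more than usual, and the irradiated ones lay above both (1.95, SE 0.177, adjusted p = 6.1e-13, 3.86-fold). Tnni1 and Tnnt1, the inhibitory and tropomyosin-binding troponins of slow fibres, went from 0.88 and 1.04 to 2.89 and 2.92 and from 2.31 and 2.36 to 3.97 and 4.23. Their changes were 1.94 (SE 0.107, adjusted p = 2.3e-21) and 1.76 (SE 0.139, adjusted p = 2.9e-15). The light chain Myl2 read 0.88 and 0.91 and then 1.79 and 2.17, again without overlap (1.08, SE 0.180, adjusted p = 3.8e-06). Genes of fast fibres rose by less than these troponins, as Myh1 by 1.22, Actn3 by 0.99, Pvalb by 0.74, Myh4 by 0.55, Mylpf by 0.53, Tnni2 by 0.52 and Tnnt3 by 0.49, and the shared genes Cacna1s and Ckm by 0.88 and 0.56. Acta1, the actin of muscle fibres, read 7.38 and 7.43 and then 7.52 and 7.54 and did not pass, nor did Des at -0.10.

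Of 16 genes of myogenic regulation and embryonic muscle 13 were tested, and 8 rose and 1 fell, with a median of 0.49. Chrng, the fetal subunit of the muscle acetylcholine receptor, read -2.75 and -2.81 untreated and -0.80 and -0.78 at 6 h. The rise of 1.99 (SE 0.185, adjusted p = 7.8e-13) came from dim values, and it was 1.31 against the untreated arrays of both arms. Myf6 rose by 1.07, Cdh15 by 0.96 and Myh3 by 0.68. Myod1, the master regulator of the lineage, read 1.30 and 1.25 and then 0.49 and 0.58 and fell by 0.74 (SE 0.0938, adjusted p = 1.1e-08). Car3, the carbonic anhydrase of slow muscle and fat, went from 2.17 on both arrays to 3.68 and 3.73. Of 8 tested fat cell markers 4 rose and 0 fell, or 2 without the first untreated array. The tumours were grown in the hind leg, where host muscle and fat adjoin, and the share of host muscle in each sample was not tested.

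Other genes with large rises belonged to no list. Cyp2c23, an epoxygenase of arachidonic acid, read -2.60 and -2.51 untreated and 0.62 and 0.71 at 6 h (3.22, SE 0.206, adjusted p = 1.2e-18). Rgs1, a regulator of G protein signals in white blood cells, went from -0.53 and -0.56 to 2.39 and 2.70, and Arg2, the mitochondrial arginase, from -2.11 and -1.64 to 1.26 and 1.12. The receptor gene Mrgpra2b read -2.14 and -2.04 and then 0.90 and 0.78, and Fam124a -0.97 and -0.75 and then 1.81 and 1.72. The changes of these 5 genes were 2.63 to 3.22. The rule that named them required both irradiated arrays above both untreated ones.

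White blood cells other than neutrophils showed smaller and mixed changes, where 10.2% of all genes rose and 18.2% fell. Of 16 tested markers of T and NK cells 6 rose (37.5%) and 2 fell (12.5%), with a median of 0.13. Without the first untreated array 3 rises were left. Gzmb, the granzyme of cytotoxic cells, read 0.28 and 0.04 untreated and 1.02 and 0.97 at 6 h (0.84, SE 0.218, adjusted p = 0.0025). The T cell receptor chains Cd3d and Cd3g rose by 0.82 and 0.47, Cd8b1 by 0.69 and Nkg7 by 0.58, while the NK receptor Ncr1 and Thy1 fell by 0.67 and 0.39. The granzymes Gzmg and Gzmd went the other way. Gzmg read 4.57 and 4.59 and then 2.64 and 2.62, a fall of 3.87-fold (-1.95, SE 0.211, adjusted p = 9.5e-11), and Gzmd 1.81 and 1.96 and then 0.26 and 0.46 (-1.53, SE 0.153, adjusted p = 1.1e-11). In NR-S1 and NFSa the change of Gzmg was 0.71 and 0.57 and in SCCVII -1.21. Among 19 tested MHC class II and dendritic cell markers 4 rose (21.1%) and 6 fell (31.6%), with 2 rises without the first untreated or the first irradiated array. Cd83, a surface protein of activated dendritic cells, read -0.44 and -0.51 and then 1.25 and 1.26 (1.73, SE 0.152, adjusted p = 1.8e-13). Clec9a, the receptor of cross-presenting dendritic cells, read 1.34 and 2.91 untreated and 0.44 and 0.47 at 6 h. The untreated replicates were far apart, so that its fall of 1.67 became 2.45 without the first and 0.89 without the second of them, and it was 0.86 with the mean of its probes and 1.02 against the untreated arrays of both arms. Batf3, the factor of that lineage, fell by 1.07 and the class II activator Ciita by 0.61, and the class II chain H2-Ab1 rose by 0.38.

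Of 8 tested B cell markers 0 rose and 2 fell (25%, against 18.2% of all genes). Ighm, the mu heavy chain, went from 2.60 and 2.47 to 1.43 and 1.32 (-1.16, SE 0.104, adjusted p = 2.2e-13). The mean over the 8 was 0.83 and 0.80 untreated and 0.71 on both irradiated arrays. Siglecg, an inhibitory receptor of B cells, read 2.12 and 1.96 and then 0.44 and 0.34, clear of each other (-1.65, SE 0.0924, adjusted p = 4.5e-21). Of 24 tested macrophage markers 4 rose (16.7%, against 10.2% of all genes) and 3 fell (12.5%, against 18.2%). Without the first untreated or the first irradiated array 2 rises were left. The mean level of these markers was 3.88 and 3.89 before and 3.90 and 3.84 after. The endotoxin co-receptor Cd14 rose by 0.80, the mannose receptor Mrc1 fell by 0.54 and Chil3, a chitinase-like protein of alternatively activated macrophages, fell by 0.69, from 2.60 and 2.70 to 1.97 and 1.95.

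Structural lists moved little, where 10.2% of all genes rose and 18.2% fell. Of 32 tested fibroblast and matrix genes 5 rose and 5 fell, with 2 to 3 rises when the second untreated or either irradiated array was left out. The proteoglycan Lum rose by 0.98, while Acta2, the smooth muscle actin, read 7.08 and 6.92 and then 6.29 and 6.25 and fell by 0.73, next to Tagln at -0.67 and Col1a1 at -0.62. Endothelial markers had 4 rises and 1 fall among 21, with 2 rises without the second untreated array and 8 against the untreated arrays of both arms. Keratinocyte markers had 1 of each among 19, mast cell markers 1 rise among 8, TGF-beta targets 6 rises and 2 falls among 17, and clock genes 2 of each among 13. For TGF-beta targets 2 rises remained in number without the second untreated or the first irradiated array.

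The response was set against the mean response of NR-S1, SCCVII and NFSa at the same dose and time, to ask where #8520 stands apart. Of 13415 genes 1921 differed (14.3%), 518 with a higher response in #8520 (3.86%) and 1403 with a lower one (10.5%). The median difference over all genes was -0.11, and with quantile normalization 680 genes had a higher and 555 a lower response, with centring on array medians 609 and 930. Leaving out the first untreated array gave 1112 genes, the first irradiated array 1270 and the second 1058. For scale, the response of NR-S1 itself called 29.8% of genes, 14.5% higher and 15.2% lower, that of SCCVII 16.3%, 9.89% higher and 6.42% lower, and that of NFSa 36%, 23.8% higher and 12.2% lower.

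Slow muscle genes led the genes with a higher response in #8520. The muscle list as a whole did not rise most in #8520. In NR-S1 25 of the 32 markers rose and 6 fell (median 0.79), above the median of 0.50 in #8520. In SCCVII 3 rose and 12 fell (-0.24), and in NFSa 6 rose and 7 fell (0.01). The mean of these tumours thus hides both directions. Against the mean of these tumours 17 had a higher and 2 a lower response, with a median difference of 0.40. Tnnc1 changed by -1.75 in NR-S1, -0.19 in SCCVII and -2.22 in NFSa, and #8520 exceeded their mean by 3.34 (SE 0.212, adjusted p = 1.7e-17). For Tnni1 the changes were -1.87, 0.10 and -2.14 and the difference 3.24 (SE 0.124, adjusted p = 2.8e-27). Tnnt1 changed by -2.37, 0.52 and -1.04, and Myl2 by -2.77, 0.96 and -1.68, with differences of 2.72 and 2.24. Slow troponins were thus lower after irradiation in NR-S1 and NFSa and higher in #8520, and Tnnt1 and Myl2 were higher in SCCVII as well. Of the 13 embryonic muscle genes 7 had a higher and 1 a lower response, with Chrng at a difference of 2.14. Of the 24 p53 targets of arrest 5 had a higher (20.8%) and 1 a lower response (4.17%). Of the 16 of death 2 were higher (12.5%) and 1 lower (6.25%), against 3.86% and 10.5% of all genes. Beyond muscle, Cyp2c23 exceeded the other tumours by 2.53, Fam124a by 1.97, Car3 by 1.91, Rgs1 by 1.59 and Cd83 by 1.54. The median change of neutrophil markers was 1.18 in #8520, 1.12 in NR-S1, 0.66 in SCCVII and 1.10 in NFSa. Against the mean of the other tumours 8 of 17 were higher (47.1%, against 3.86% of all genes) and 2 lower (11.8%, against 10.5%). Retnlg was higher by 1.40 and S100a9 by 1.06. Against NFSa alone 3 were higher and 6 lower, with Retnlg among the lower. The neutrophil receptor Cxcr2 exceeded the mean of the other tumours by 1.18 and its ligand Cxcl5 by 1.21, while Cxcl3 was lower by 0.42.

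Genes with a lower response included macrophage and interferon genes beside Ptx3. Chil3 rose by 2.45 in NR-S1, 1.32 in SCCVII and 1.12 in NFSa against its fall in #8520, a difference of -2.32 (SE 0.124, adjusted p = 1.1e-20). Slfn1, a Schlafen family gene of lymphoid and myeloid cells, rose by 1.72, 1.14 and 1.06 in them and read 3.05 and 2.93 and then 2.77 and 2.59 in #8520, a difference of -1.62 (SE 0.130, adjusted p = 4e-14). Siglecg differed by -1.75, Gzmg by -1.98 and Gzmd by -1.55. Of the 24 tested macrophage markers 16 rose and 0 fell in NR-S1 (median 0.52) and 11 rose and 2 fell in NFSa (0.24). In SCCVII 5 rose and 4 fell (0.01), close to the 4 and 3 of #8520 (0.03). The mean of the other tumours thus joins unlike responses. Of 24 macrophage markers 10 had a lower and 1 a higher response, with 6 lower after quantile normalization, after centring and without the second untreated or either irradiated array. The other tumours were opposed in interferon-stimulated genes, of which 2 rose and 26 fell in NR-S1 (median -0.58), 28 rose and 0 fell in SCCVII (0.83) and 22 rose and 3 fell in NFSa (0.42), so that their mean hides both directions. Against that mean, of the 38 genes 10 were lower and 1 higher, with 5 lower after quantile normalization or without the second irradiated array and 6 without the first untreated one. Of 43 mitotic genes 18 had a deeper and 0 a shallower fall than the mean of the other tumours, with a median difference of -0.37. After quantile normalization 13 were deeper. The fall of the list in NR-S1 was close to that in #8520, with 38 of the 43 falling (median -0.997, against -1.11 in #8520). In SCCVII 34 fell (-0.50) and in NFSa 37 (-0.76). Kif23 differed by -0.95, next to changes of -0.35 in NR-S1, which did not pass, -0.64 in SCCVII and -2.11 in NFSa. Sterol genes fell further in 10 of 23, 7 after quantile normalization, with Cyp51 at a difference of -0.87 and Idi1 at -0.81.

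**Figure D3:**
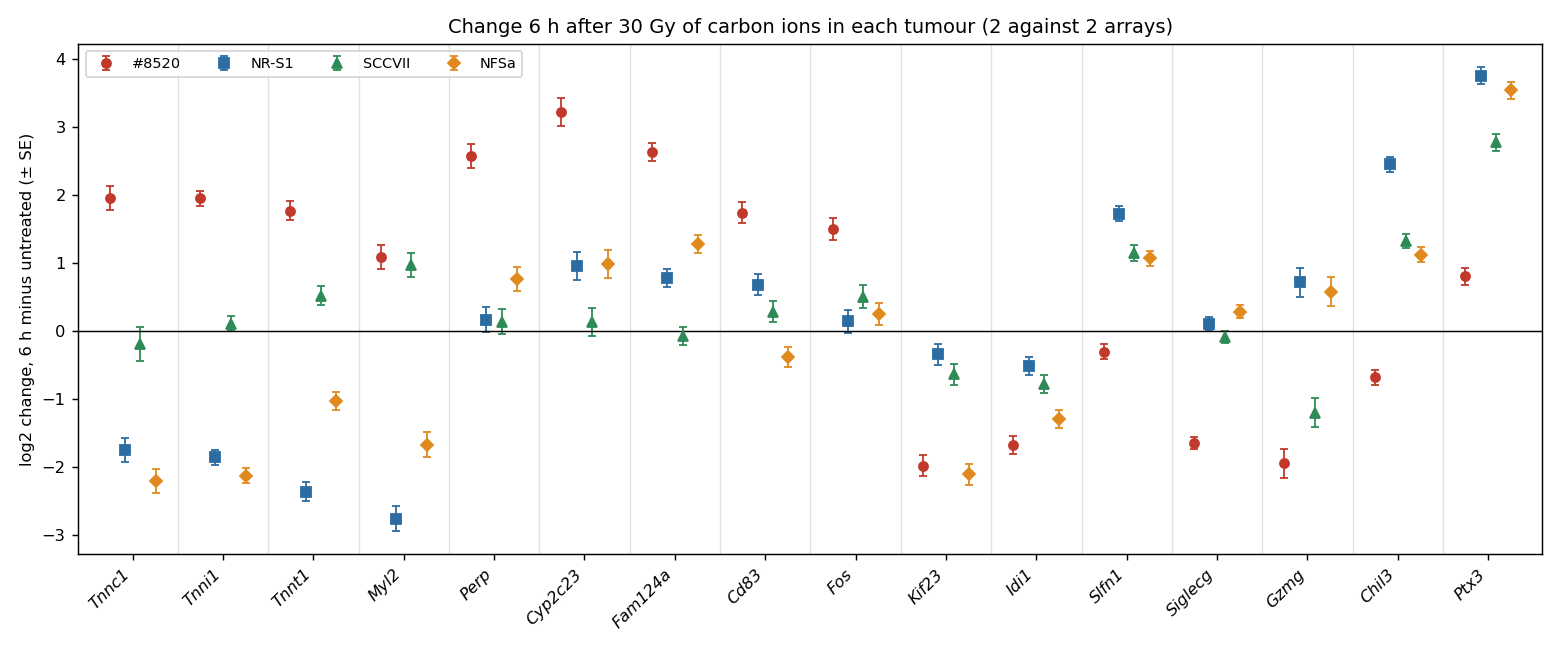
Log2 change at 6 h after 30 Gy of carbon ions in #8520, NR-S1, SCCVII and NFSa for 16 genes, each point with its standard error from the fit. The slow muscle genes lie above 0 in #8520 and below 0 in NR-S1 and NFSa. In SCCVII Tnnt1 and Myl2 also lie above 0, and Tnni1 and Tnnc1 lie near it. Ptx3 and Chil3 lie far lower in #8520 than in the other tumours.

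NFSa is the other fibrosarcoma, and against it alone 2846 of 13457 genes differed (21.1%), 500 higher in #8520 (3.72%) and 2346 lower (17.4%). The median difference was -0.15. After quantile normalization the counts were 770 and 685, and without the second irradiated array 1824 genes differed. Muscle markers had a higher response in 16 of 32 and a lower one in 0, and embryonic muscle genes in 7 of 13 and 1. Interferon-stimulated genes had a lower response in 19 of 38 and a higher one in 0, with a median of -0.43. Macrophage markers had a lower response in 5 of 24 (20.8%, against 17.4% of all genes) and a higher one in 0. T and NK markers were higher in 6 of 16 and lower in 1, and NF-kB targets higher in 5 of 21 and lower in 0. Neutrophil markers rose less than in NFSa for 6 of 17 and more for 3, with S100a8 at -0.70 and Retnlg at -0.68. Perp differed by 1.82, Cd83 by 2.12 and Ptx3 by -2.73, each past the threshold.

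Gamma rays at the same dose and time were the reference beam. The response of #8520 to 30 Gy of gamma rays called 5448 of 13444 genes (40.5%), 16.5% higher and 24.1% lower, and that to 50 Gy called 57.6%, 20.1% higher and 37.5% lower. The responses to carbon ions and gamma rays differed for 2519 of 13440 genes (18.7%), 1357 with a higher response after carbon ions (10.1%) and 1162 with a lower one (8.65%). After centring on array medians the counts were 1148 and 1706. Each beam had its own untreated tumours, and these differed from each other for 4783 of 13441 genes (35.6%), 18.3% higher and 17.3% lower in the carbon arm. Both arms are labelled #8520, but each beam was used in an arm of its own, so that beam and arm cannot be told apart.

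The clearest difference lay in genes induced by interferon. After carbon ions the list of 42, of which 38 were tested, had 1 rise and 7 falls (median -0.11), with 3 to 4 falls when any of the 4 arrays was left out or after quantile normalization and 11 against the untreated arrays of both arms. After 30 Gy of gamma rays 36 of the 38 fell and 0 rose, with a median of -1.06, and after 50 Gy 36 fell and 2 rose, with a median of -1.59. The difference between the beams passed for 32 genes in favour of carbon ions and for 1 in favour of gamma rays, with a median of 0.95. The mean level over the 38 genes was 3.90 and 3.92 untreated and 3.80 and 3.76 after carbon ions, against 3.79 and 3.92 untreated and 2.40 and 2.37 after 30 Gy of gamma rays. The untreated arms thus overlapped in the mean of this list. Of its genes 7 were higher (18.4%) and 4 lower (10.5%) in the carbon arm, against 18.3% and 17.3% of all genes.

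Gbp8, a guanylate-binding protein of the defence against intracellular microbes, read 3.65 and 3.59 untreated and 4.0 on both arrays after carbon ions. It rose by 0.39 (SE 0.118, adjusted p = 0.01), changed by -4.42 after gamma rays, and differed between the beams by 4.80 (adjusted p = 3.6e-29). Gbp4 read 5.29 and 5.23 and then 5.27 and 5.29, and Gbp2 4.61 and 4.73 and then 4.52 and 4.48. Neither passed after carbon ions, and their changes after gamma rays were -2.91 and -3.23. Cxcl9, a chemokine for T cells that interferon gamma induces, read 5.86 and 5.80 and then 5.81 and 5.71, against -3.03 after gamma rays. Igtp, a GTPase of the same defence, fell by 0.45, from 4.70 and 4.84 to 4.31 and 4.33, against -2.66 after gamma rays. The letters GAAANNGAAA of an interferon element, on either strand, were in 16 of 33 windows of this list (48.5%) against 3.44% of all windows. Gbp2, at chr3:142620563-142620662, and Igtp, at chr11:58199456-58199555, both on the plus strand, are shown as genes with a match, in capitals, that differed between the beams.
Gbp2: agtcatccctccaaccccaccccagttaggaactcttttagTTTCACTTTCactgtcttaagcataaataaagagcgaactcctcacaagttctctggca
Igtp: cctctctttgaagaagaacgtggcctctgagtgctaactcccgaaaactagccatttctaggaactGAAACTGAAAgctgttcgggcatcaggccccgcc
In Gbp2 the match lies on the opposite strand.

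**Figure D4:**
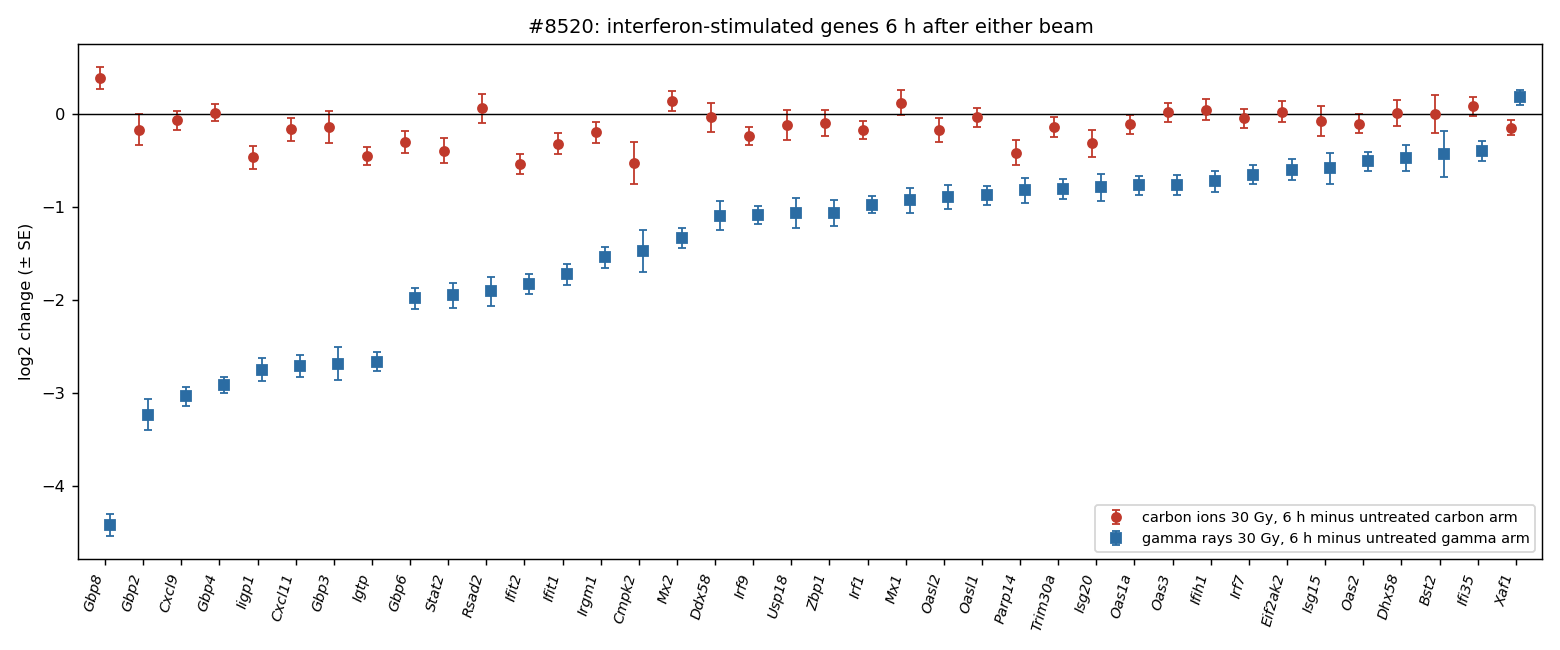
Log2 change at 6 h after 30 Gy of carbon ions and of gamma rays in #8520 for the 38 interferon-stimulated genes tested, ordered by the change after gamma rays, each with its standard error. The carbon-ion points lie near 0, from -0.53 to 0.39, and most gamma points lie well below.

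T and NK cell markers differed in the same direction. Their mean level over 16 genes went from 1.06 and 1.05 to 1.22 and 1.21 after carbon ions and from 1.04 and 1.06 to 0.20 and 0.21 after gamma rays, and 12 of 16 had a higher response after carbon ions and 0 a lower one (median difference 1.07). Gzmb differed by 2.34 (adjusted p = 6e-08), Ccl5, a chemokine that T cells make, by 2.15 and Cd83 by 2.64. H2-Ab1 rose by 0.38 after carbon ions and changed by -1.35 after gamma rays. The part of these cells in the difference of interferon genes was not tested. NF-kB targets had a higher response in 14 of 21 and a lower one in 0, chemokines in 14 of 25 and 0, and neutrophil markers in 11 of 17 and 0. Icam1 changed by -0.05 after gamma rays, which differed from its rise after carbon ions by 1.00 (adjusted p = 1.3e-07), and Fos by -0.35, a difference of 1.84 (adjusted p = 3.8e-08). Of the 24 p53 targets of arrest 6 had a higher (25%) and 2 a lower response (8.33%) after carbon ions. Of the 16 of death 6 were higher (37.5%) and 1 lower (6.25%), against 10.1% and 8.65% of all genes. Mdm2 rose further by 1.23 (adjusted p = 0.0014), Btg2 by 1.18 and Ei24 by 1.37, while Gadd45a differed by -0.77, Dglucy by -0.60 and Tigar by -0.92. Of the 24 arrest targets 17 rose and 1 fell after gamma rays.

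Muscle genes rose less than after gamma rays. The mean of the 32 markers went from 3.47 and 3.73 to 5.10 and 5.15 in the gamma arm, where 31 rose and 0 fell, and after 50 Gy 29 rose and 0 fell (median 2.18). The response to carbon ions was lower for 24 of the 32 and higher for 0, with a median difference of -0.79. Untreated, the mean level of the muscle list overlapped between the arms. Single genes differed, with 6 higher (18.8%) and 7 lower (21.9%) in the carbon arm, against 18.3% and 17.3% of all genes. Mylk4, a myosin kinase of muscle, read -0.07 and -0.38 untreated and -0.14 and -0.43 after carbon ions and changed by 3.88 after gamma rays (difference -3.94, adjusted p = 2.8e-24). Mstn, the myostatin that limits muscle growth, changed by 0.92 and 3.97, and Myod1 by -0.74 and 2.52. The slow troponin Tnni1 rose by 2.43 after gamma rays, next to 1.94. Among genes with a higher response after carbon ions Ino80b differed by 3.55 (adjusted p = 0.011), with an SE of 0.733 in its carbon-ion response. Its untreated levels already differed between the arms by -3.20. Ppp1r1a differed by -2.56, and Cyp2g1 by -2.43 with a value on 1 of its 2 untreated arrays. Of the sterol list 1 gene had a higher and 9 a lower response after carbon ions, with Idi1 at -1.19 and Sqle at 0.36, of which Sqle did not pass.

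The 6 h arrays were then set against the later times after carbon ions. Day 1 and day 3 share the untreated arrays with 6 h, so changes between times are read from the direct differences, and values against untreated tumours stand beside them as a description. Day 1 differed from 6 h for 6599 of 13460 genes (49%), 5000 higher (37.1%) and 1599 lower (11.9%), with a median over all genes of 0.16, and quantile normalization gave 2276 and 2249. Day 3 differed for 4984 of 13464 (37%), 2243 higher (16.7%) and 2741 lower (20.4%). Against untreated tumours 48.9% of genes passed at day 1, 30.4% higher and 18.5% lower, and 50.3% at day 3, 19.1% higher and 31.1% lower.

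Mitotic genes were higher at day 1 than at 6 h and lower at day 3. Of the 43 tested, 38 were higher at day 1 than at 6 h, with a median of 1.00, and 29 were lower at day 3 than at 6 h and 0 higher, with a median of -0.50. Kif20a changed from untreated by -1.96 at 6 h, 0.07 at day 1 and -2.06 at day 3. For Plk1 the values were -1.83, -0.53 and -2.21 and for Cdk1 -0.79, 0.03 and -1.47. Replication genes had no such rise, with 1 of 40 higher and 12 lower at day 1 and 1 higher and 36 lower at day 3, and Mcm2 at -1.21, -1.28 and -1.68. Sterol genes were lower still at day 3. Idi1 changed by -1.68, -2.55 and -4.16 and Cyp51 reached -3.16 at day 3, and 18 of 23 sterol genes were lower at day 3 than at 6 h and 0 higher.

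p53 targets of arrest were higher at day 1 than at 6 h in 12 of 24 (50%, against 37.1% of all genes). They were lower at day 1 in 5 (20.8%, against 11.9% of all genes). At day 3 they were higher in 2 (8.33%, against 16.7%) and lower in 16 (66.7%, against 20.4%). Cdkn1a stayed up by 1.38 and 1.24, while Perp was at 2.29 at day 1 and 0.49 at day 3 and Mdm2 at 0.62 at day 1. Of 25 chemokines and receptors 13 were lower and 1 higher at day 1 than at 6 h, and 9 were lower and 11 higher at day 3. Cxcl1 changed by 3.06, 0.36 and 0.24 from untreated at 6 h, day 1 and day 3, and Cxcl2 by 4.22, 3.59 and 1.18. Of the neutrophil genes S100a9 was at 4.06, 4.47 and 0.53, and 10 of 17 markers were lower at day 3 than at 6 h and 3 higher. Fos went from 1.49 to -0.99 and Pdk4 from 2.17 to -1.17 by day 1, and Il6 from 1.46 to -0.93.

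Muscle genes were lower at day 1 than at 6 h in 22 of 32 and higher in 1, and against untreated tumours 4 were higher and 10 lower at day 1. Tnnc1 changed from untreated by 1.95, -1.86 and 0.05 and Tnni1 by 1.94, -1.51 and 0.29, and the direct differences between day 1 and 6 h were -3.81 and -3.46. Interferon-stimulated genes were lower at day 1 for 18 of 38 and higher for 3, and at day 3 higher for 35 and lower for 0, with a median difference of 0.93 from 6 h. Gbp8 changed by 0.39, -3.25 and 1.01. T and NK markers followed, with 12 of 16 lower and 1 higher at day 1 and 11 higher and 1 lower at day 3. Fibroblast and matrix genes were higher at day 1 in 27 of 32 and lower in 0. At day 3 Apod, a lipid-binding lipocalin, stood 3.17 above its 6 h level, Sned1, a matrix protein, 3.11 above and the methyltransferase Inmt 3.07 above.

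**Figure D5:**
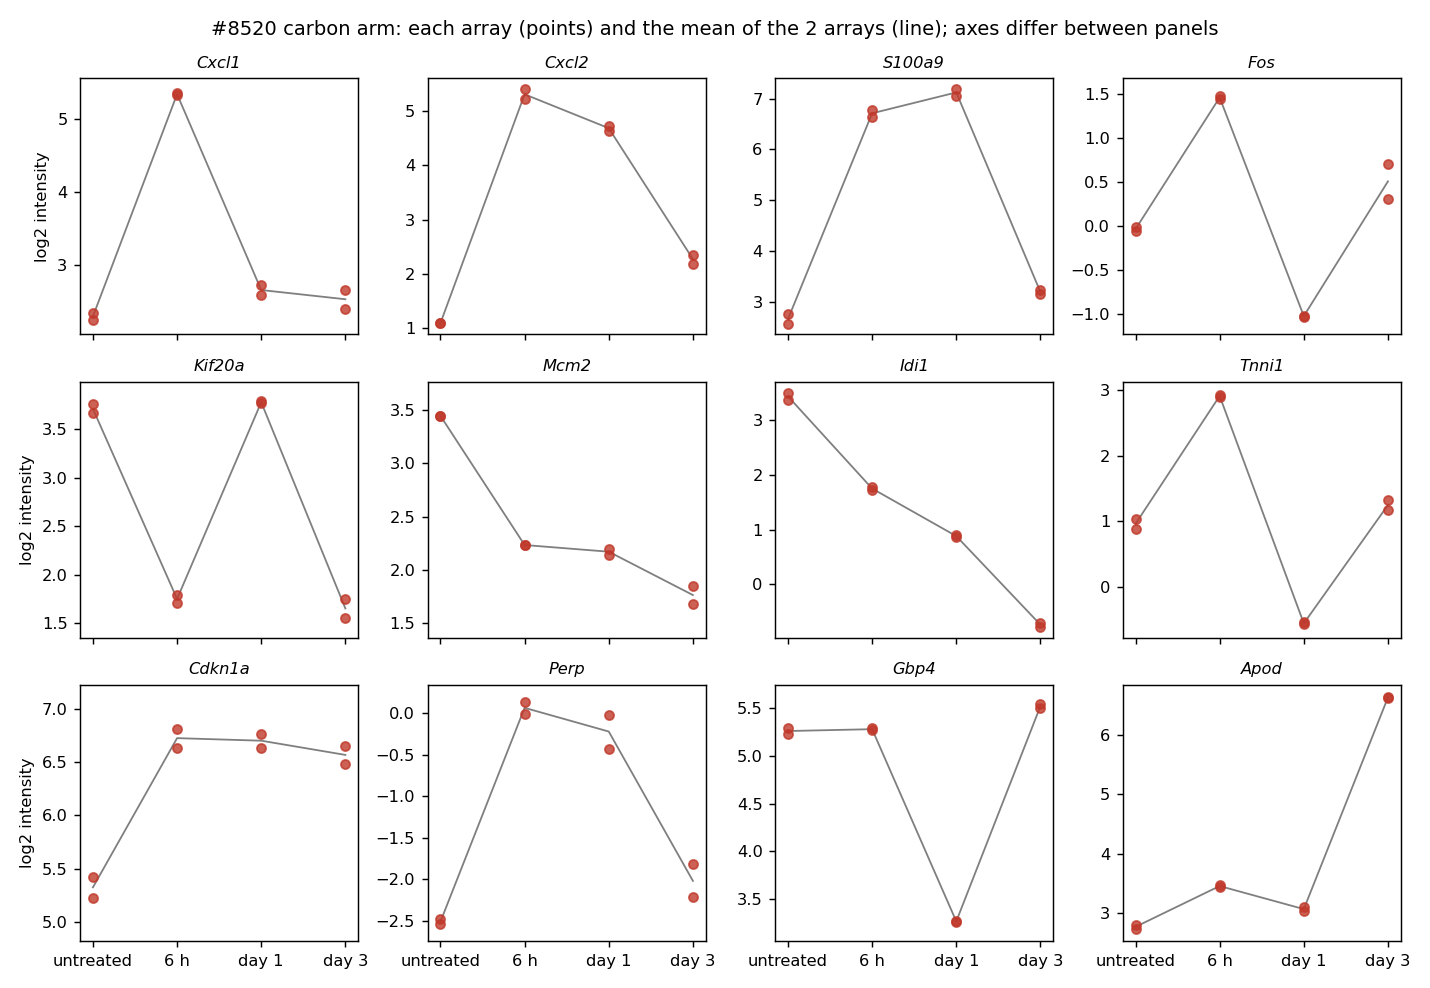
Log2 of the deposited intensity of 12 genes in #8520, untreated and at the 3 times after carbon ions. Each point is 1 array and the line joins the group means, with a vertical axis of its own for each gene. Cxcl1, Fos and Tnni1 are highest at 6 h, Kif20a is lowest at 6 h and at day 3, Idi1 falls at each time, and Apod is highest at day 3.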

How the data were processed

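Total RNA of whole tumours was made into Cy5 cRNA target by the manual CodeLink procedure, per the labels' protocols, and hybridised to 88 arrays of 36227 probes in 44 groups of 2. The values the authors deposited are linear intensity per probe, already near a median of 1 on each array and as low as -0.271, which shows that background was subtracted. The scanner software and the rule of scaling were not given in the sources used here. Values not above 0, 0.149% of all, were set to missing, beside 0.751% without a value.

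Log2 was taken with no further normalization. A single gene symbol was given for 21615 probes, several for 681 and none for 13931, and symbols were updated by Entrez number for 21487 through RefSeq's table of GRCm38.p6. The probe with the highest mean over all arrays stood for each of 18067 genes, 3002 of which had several. The 25% of genes with the lowest mean level, and those present on under 80% of arrays, were not tested.

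limma 3.58.1 (R 4.3.3; data.table, version 1.17.8) fitted a mean for each group over all arrays, with 44 residual degrees of freedom and a prior of 7.30. Adjusted p is that of Benjamini and Hochberg over all genes of a comparison, two-sided. The fit was tested on simulated data. The number of arrays limits the precision.

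The genes named were the 15 largest rises and 10 largest falls that passed without overlap of the groups and with a log2 level of at least -1 in the higher group, 6 each way for the difference from other tumours, 5 for that from gamma rays and 4 for each later time, passing over predicted and unnamed transcripts. Of each of 31 gene lists up to 4 members that changed most were also named, and always Celf5, Cdkn1a, Mdm2, Ccng1, Plk1 and Ung. Further members named beside these, and the lists' other values, were chosen after their values were seen. The members and lists were chosen with earlier results of these data known. Promoter motifs were matched in the RefSeq windows of 300 bases. Alternatives were other normalizations, filters, probe rules, sets of arrays, an offset, the control arm and each array left out.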

Additional observations from a re-analysis of the deposited data

Results flagged for a closer look

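The responses below differed between tumours, beams or times by a test of the difference itself, with limma and adjusted p under 0.05, and were the largest of their comparison by the naming rule. Between #8520 and the mean of the other 3 tumours at 6 h after carbon ions, the slow muscle genes Tnnc1, Tnni1, Tnnt1 and Myl2 differed by 3.34, 3.24, 2.72 and 2.24, Cyp2c23 by 2.53 and Perp by 2.23. Lower in #8520 were Ptx3 (-2.55), Chil3 (-2.32), Gzmg (-1.98), Siglecg (-1.75), Slfn1 (-1.62) and Gzmd (-1.55).

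Between carbon ions and gamma rays at 30 Gy in #8520, Gbp8 differed by 4.80, Ino80b by 3.55, Gbp2 by 3.07, Cxcl9 by 2.97 and Gbp4 by 2.93. Lower after carbon ions were Mylk4 (-3.94), Myod1 (-3.26), Mstn (-3.05), Ppp1r1a (-2.56) and Cyp2g1 (-2.43). Cyp2g1 had a value on 1 of its 2 untreated carbon-arm arrays. For Ino80b the untreated arms already differed by -3.20, and the SE of its carbon-ion response was 0.733. Beam and arm cannot be told apart in these values.

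Between day 1 and 6 h, the prostaglandin dehydrogenase Hpgd was higher at day 1 by 3.20, Ecrg4 by 2.91, the fat cell hormone Adipoq by 2.67 and the collagen Col11a1 by 2.52, while Tnnc1 (-3.81), Gbp8 (-3.63) and Tnni1 (-3.46) were lower. Enkur was lower by -4.93, with both of its untreated values missing. Between day 3 and 6 h, the peptide hormone gene Sct was higher at day 3 by 3.60, Apod by 3.17, Sned1 by 3.11 and Inmt by 3.07, while Cxcl3 (-3.54), S100a9 (-3.52), Cxcl2 (-3.04) and Cxcl1 (-2.82) were lower. These differences share the 6 h arrays.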

How the results depend on the processing

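The carbon-ion response of 3822 genes gave 3379 with quantile normalization, 2938 of them shared, 3808 with centred arrays, 2910 with the dimmest 50% of genes left out, 3625 in a fit of the 4 arrays and 5436 against the untreated arrays of both arms. The sources used here do not say whether replicate numbers pair the samples. The correlation of replicate deviations was 0.095 between untreated and irradiated arrays, which cannot show whether samples were paired. A fit with the replicate number as a block gave 3922 genes, next to 3953 without it on the same 8 arrays. Leaving out 1 array gave 2546 to 2825 genes, for the difference from the other tumours 1058 to 1464, from NFSa 1824 to 2243, from gamma rays 1858 to 2173, and for day 1 and day 3 against 6 h 5079 to 6600 and 3846 to 4986. Quantile normalization lowered the difference from the other tumours to 1235 genes and that from NFSa to 1455, with the share of higher calls going from 27.0% to 55.1%, from 17.6% to 52.9% and, for day 1 against 6 h, from 75.8% to 50.3%. Centring moved it to 39.6% for the other tumours and from 53.9% to 40.2% for gamma rays. Of single genes Gsr turned from -0.44 to 0.17 with both arms as control, and Dsp, which had not passed at 0.66, was -0.23 with the mean of its probes. The cause of these shifts was not tested. Of the alternative values of single genes 2275 kept direction and side of the threshold, 50 lost the call, as Myh8 at 0.46 with the mean of its probes, and 17 gained it. Values near the background floor give folds of limited precision.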
